A study of Salmo salar with 12 samples.

Results

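The 100 array probes described here are those whose signal in Atlantic salmon liver was lower at each higher dose of depleted uranium (U). They were chosen from the deposited array files as follows. The 20456 of 55468 probes (36.9%) that were well above background in every spot on all 12 arrays were kept, and these are called always-detected probes below. Each probe's log2 intensity was scaled by subtracting its array's 75th percentile, and the means of the 4 groups gave 3 drops: control to low U, low to medium U, and medium to high U. Probes were then ranked by the smallest of their 3 drops and the first 100 were taken. Since the group means chose the probes, their decline is a description of that choice and carries no test.

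The study asked how waterborne U alters global gene expression in the liver of a fish. Salmon parr were kept for 48 h in the dark, unfed and in static aerated lake water, without U (control) or with a nominal 0.25 (low U), 0.5 (medium U) or 1.0 mg/L (high U) of U, added as uranyl acetate dihydrate. From each group 3 liver RNA samples were labelled with Cy3 and hybridised to 12 one-colour oligonucleotide arrays, 1 sample per array. Each of the 3 slides held 1 array of every group. Replicate tanks within a group are not described in the sources used here, so an effect of the tank and an effect of the dose cannot be told apart. Unless a fit has a term for the slide, the p-values below rest on the spread between these RNA samples together with differences between slides.

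Depleted uranium is the material left when the fissile isotope has been enriched from natural uranium, and its harm to aquatic animals is attributed mainly to its chemistry as a heavy metal. In water the uranyl ion binds carbonate, phosphate and organic ligands, and in fish it is taken up across the gill and gut and reaches the liver, kidney and bone. The liver binds and excretes metals and is a tissue in which redox and energy metabolism respond to them. A transcript that declines through a dose series is of interest in toxicology because its level can follow the exposure, whereas many transcripts respond at a single dose or turn back at the next.

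Group means fell at every step in 1164 of the 20456 always-detected probes (5.69%) and rose at every step in 1241 (6.07%). This balance depended on the scaling, with 871 falling and 1459 rising after subtraction of the array median and 483 falling and 43 rising after scaling to spike-in probes. Of the 24 orders in which 4 group means can stand, the falling order held the rank 8 by number of probes. The most common, with 2596 probes (12.7%), had the highest mean in the control, followed by high, low and medium U. Raw brightness neither rose nor fell at every step: the 75th percentile of intensity lay between 55.7 and 73.8 on the control arrays, 113 and 138 with low U, 122 and 154 with medium U and 68.8 and 94.7 with high U. By group average, brightness ran in the reverse of the most common order, and a link between them was not tested. Scaling removed the difference in brightness, and its part in the steps is given with the scaling settings below. No spot was saturated.

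Among the 100 probes the smallest drop ran from 0.14 to 0.45 on the log2 scale, with a median of 0.18. The limit of 100 fell in a dense part of the ranking. The last probes inside it, SS_UG_35475375 and 5619101, had smallest drops of 0.1434 and 0.1431, and the first outside, 5620851 and OM_UG27_56257695, had 0.1420 and 0.1416. The median drop was 0.29 from control to low U, 0.22 from low to medium U and 0.22 from medium to high U. The same medians over all always-detected probes were -0.08, 0.04 and 0.00, where a negative drop is a rise. The first step was the largest for 47 probes, the second for 24 and the third for 29.

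From control to high U the 100 probes fell by a median of 0.81 on the log2 scale, which is 1.75-fold, with quartiles of 0.70 and 1.03 and a range from 0.52 to 3.44. The fall reached 1.5-fold in 94 probes and 2-fold in 28. Averaged over the 100 probes, each centred on its own mean, the control arrays stood at 0.52, 0.57 and 0.39 and the low U arrays at 0.06, 0.24 and 0.00. The medium U arrays stood at -0.14, -0.21 and -0.14 and the high U arrays at -0.49, -0.50 and -0.31. The array means of neighbouring groups did not overlap, but these same arrays chose the probes, so nothing is read from this. The group means ± SD were 0.49 ± 0.09 for the control, 0.10 ± 0.13 for low U, -0.16 ± 0.04 for medium U and -0.43 ± 0.11 for high U (n = 3 each), an order that the choice of the probes fixed.

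**Figure D1:**
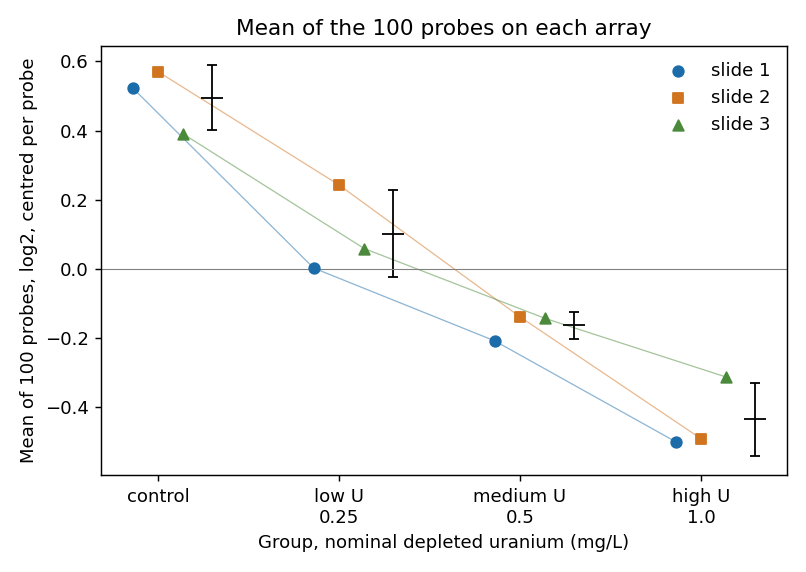
Mean of the 100 probes on each of the 12 arrays (vertical axis, log2 intensity relative to the array's 75th percentile and centred per probe) by group (horizontal axis, nominal mg/L), with colour and shape for the slide and black marks for the group mean ± SD (n = 3). The means fell from 0.49 in the control to -0.43 at high U, and the 4 arrays of each slide kept the order of the doses. These same arrays chose the probes, so nothing is read from the order or from the distance between groups.

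Single probes varied from array to array. The SD within groups, pooled over the 4 groups, had a median of 0.37 over the 100 probes and 0.29 over all always-detected probes. Only 8 of the 100 had a smallest drop larger than their own pooled SD. Control and low U arrays did not overlap in 11 of the 100 (11.9% of always-detected probes), low and medium U arrays in 7 (4.06%), and medium and high U arrays in 11 (6.99%). No probe was free of overlap at all 3 steps (0 of the 100 and 0% of always-detected probes), and 74 of the 100 overlapped at every step. Over the whole range the groups lay further apart: all high U arrays lay below all control arrays in 72 of the 100 (12.4% of always-detected probes), and all 9 exposed arrays lay below the controls in 11 (6.11%). The 8 and the 74 have no share over all always-detected probes beside them. The same group means chose the probes, so nothing is read from these counts.

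**Figure D2:**
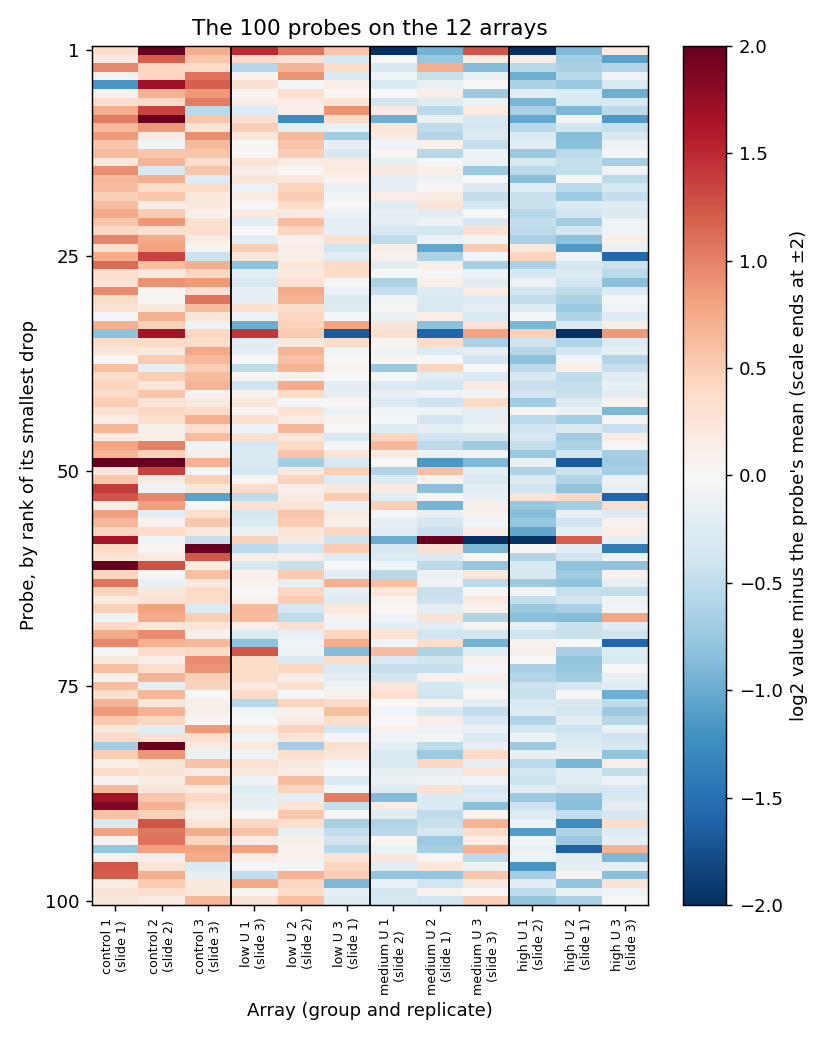
Log2 value of each of the 100 probes (rows, by rank of the smallest drop) on each of the 12 arrays (columns, by group, with the slide in brackets), minus the probe's mean; colours end at ±2. The shift from high (red) in the control to low (blue) at high U runs through the rows, while single arrays break the order in many of them.

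The highest-ranked probe, SS_UG_35663823, had by far the largest fall and also the widest spread. Its log2 values relative to the 75th percentile were 6.42, 9.43 and 6.79 on the control arrays, 7.55, 7.12 and 6.61 with low U, 4.05, 5.11 and 7.32 with medium U and 0.88, 5.18 and 6.24 with high U. Neighbouring groups overlapped at each step. One high U array, replicate 1, lay far below the others, and without it the fall of 3.44 was 1.83. On slide 3 it was higher at low and at medium U than in the control.

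Probe 5461234, ranked 7, gave a more even picture. It read 1.45, 1.51 and 2.13 on the control arrays, 1.22, 1.26 and 1.38 with low U, 0.75, 0.87 and 0.99 with medium U and 0.19, 0.79 and 0.81 with high U. The control arrays lay above the low U arrays and these above the medium U arrays, while medium and high U overlapped. Its fall of 1.10 was 2.14-fold, and it fell at each step on each slide. No name is tied to it.

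The other 8 probes of the first 10 fell by 1.03 to 2.14 on the log2 scale. Probe 5627604, ranked 9, fell by 2.14, most of it in the first step (1.60): it read 1.85, 3.44 and 1.36 on the control arrays, 1.12, -0.45 and 1.17 with low U, -0.16, 0.67 and 0.51 with medium U and -0.22, 0.75 and -0.32 with high U. The controls lay above all exposed arrays, and the 3 doses overlapped. Probe 5631868, ranked 5, read -2.34, 0.51 and 0.02 on the control arrays, -0.87, -1.22 and -1.04 with low U, -1.48, -1.32 and -1.19 with medium U and -1.80, -1.91 and -1.48 with high U. Its control mean rested on single arrays, since the fall of 1.13 became 2.00 without control replicate 1 and 0.57 without control replicate 2. Probe 5643518, ranked 8, also leaned on its controls (0.68, 1.31 and -0.59), and its fall of 1.21 became 0.79 without control replicate 2 and 1.73 without control replicate 3.

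The remaining 5 of the first 10 overlapped at every step. Probe 5629067, ranked 2, read 2.67, 3.69 and 3.04 in the control and 2.62, 1.80 and 1.42 at high U, with the intermediate doses between 1.74 and 2.89. Probe 5442214, ranked 6, read -1.50, -0.89 and -0.72 in the control and -1.79, -1.86 and -2.56 at high U. SS_UG_47729957, 5643847 and 5646009, ranked 3, 4 and 10, fell by 1.18, 1.07 and 1.05. In all 5 probes the control and high U arrays did not overlap.

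**Figure D3:**
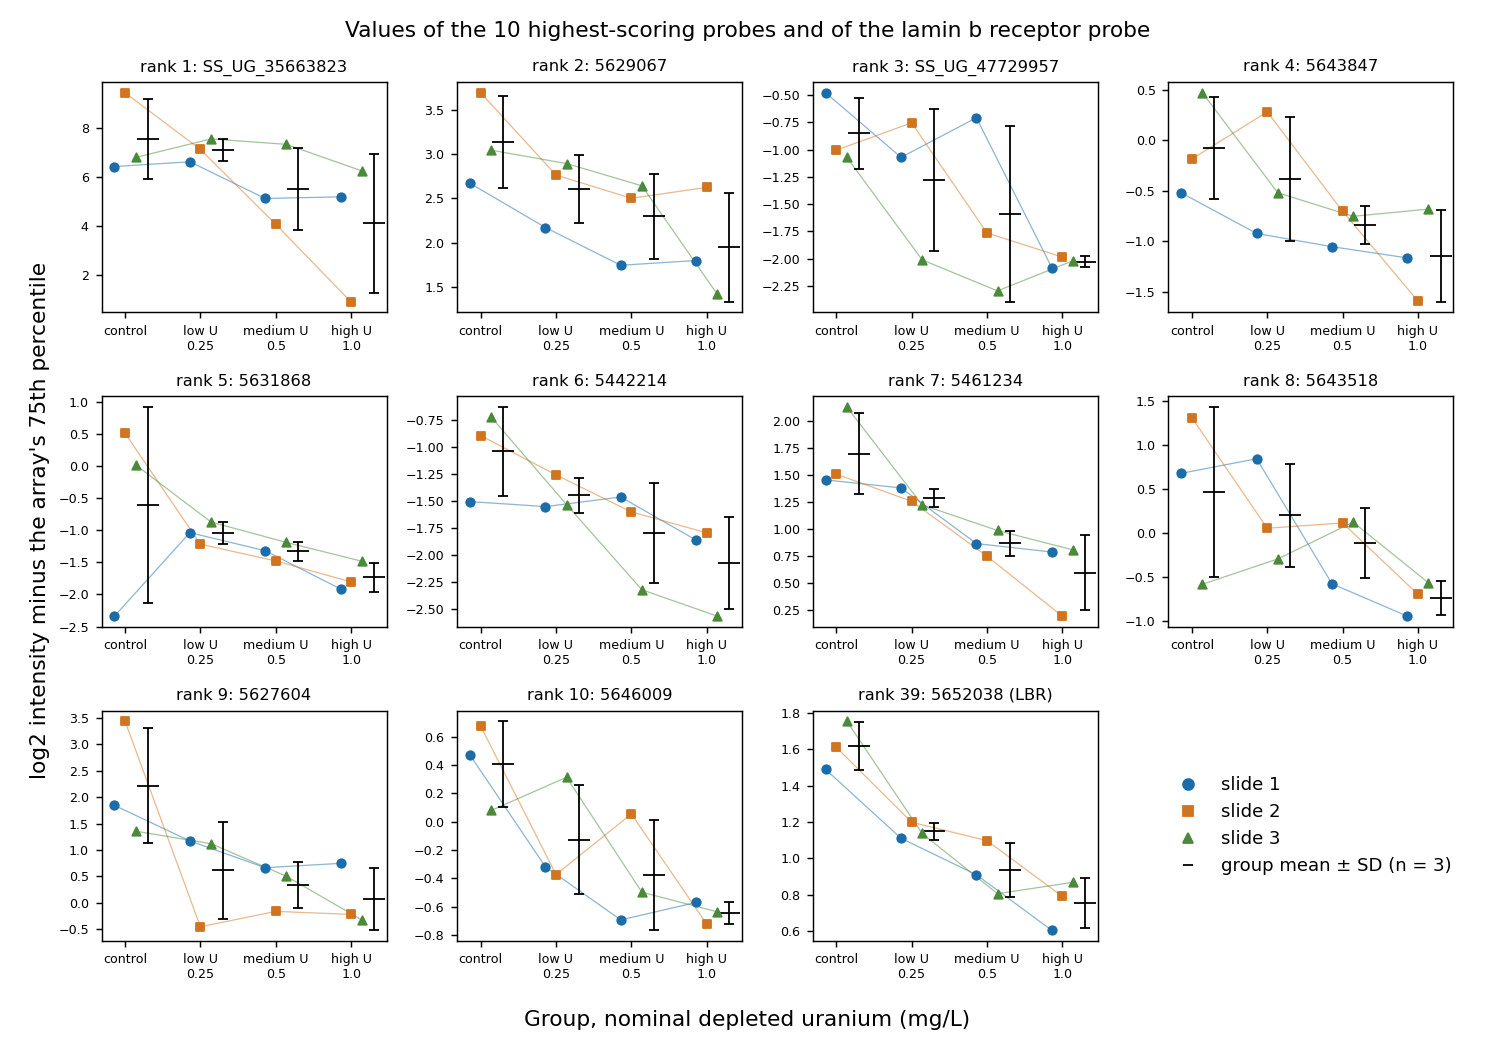
Values of the 10 highest-ranked probes and of the lamin b receptor probe (LBR) on the 12 arrays (vertical axis, log2 intensity minus the array's 75th percentile, a separate scale in each panel) by group (horizontal axis, nominal mg/L), with lines joining the arrays of a slide and black marks for the group mean ± SD (n = 3). In probe 5461234 and the LBR probe only medium and high U overlapped, whereas the fall of SS_UG_35663823 went from 3.44 to 1.83 without 1 high U array.

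A single member of the 100 could be given a gene name. The array files hold identifiers but no gene names, and names came only from probes that the study listed as responding: 886 probes in all, of which 666 were always detected. The named member was probe 5652038, ranked 39, for lamin b receptor (LBR). In mammals this protein sits in the inner nuclear membrane, where it ties B-type lamins and heterochromatin to the nuclear envelope, and its membrane part is a sterol reductase of cholesterol synthesis. The other 99 are described by their identifiers.

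The LBR probe read 1.49, 1.61 and 1.75 on the control arrays, 1.14, 1.20 and 1.11 with low U, 1.10, 0.91 and 0.81 with medium U and 0.79, 0.60 and 0.87 with high U. Control arrays lay above low U arrays and low U arrays above medium U arrays, while medium and high U overlapped. The group means ± SD were 1.62 ± 0.13, 1.15 ± 0.05, 0.94 ± 0.15 and 0.75 ± 0.14 (n = 3 each). The drops were 0.47, 0.21 and 0.18, a fall of 0.86 (1.82-fold), and 8 of the 9 steps within slides were downward. In liver, a bulk tissue, fewer cells of a type that expresses a gene and less of its RNA per cell cannot be told apart.

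Further named genes declined in order but with a smaller smallest drop, so that they ranked below the first 100. They were looked up after their values were seen. Of the 666 named always-detected probes, 11 fell at every step, beside 1164 of all 20456 always-detected probes (5.69%). Of the 11, 8 carried a gene name, LBR among them. The drebrin-like probe (Dbnl, an adaptor that links actin to endocytosis), ranked 140, fell by 1.10, with drops of 0.80, 0.19 and 0.12. SERPINH1, the collagen chaperone HSP47 of the endoplasmic reticulum, ranked 698 and fell by 0.59 (0.41, 0.15 and 0.03). NNT, the mitochondrial transhydrogenase that regenerates NADPH, ranked 976 and fell by 0.99 (0.75, 0.22 and 0.01). Among the 8 the first step was the largest in 7 and the last the smallest in 6. The exceptions were a Tcb1 transposase probe, whose drops were 0.04, 0.97 and 0.31, and a probe for a relative of poliovirus receptor-related 3, with 0.72, 0.06 and 0.19. Names exist only for probes the study listed as changed against the control, so the 8 are a selected set. Nothing is therefore read from this tally. Among the 100 the first step was the largest in 47.

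Genes of 9 functional groups were also looked up: oxidative phosphorylation, chaperones, the proteasome and ubiquitin, the cytoskeleton, signalling, lipid metabolism, amino acid breakdown, blood coagulation and translation. Each group was a short list of symbols, which covered neither SERPINH1 nor Dbnl. For translation, any symbol that began with an entry of its list of 4 was taken, which gave 24 named probes, RPS6KL1 among them. The lists had 67 named probes, of which 59 were always detected. None of the 59 fell at every step (0), beside 5.69% of all always-detected probes. Since names exist only for probes the study listed as responding, the 59 are no sample of these pathways. The marker lists for hepatocytes, erythrocytes, exocrine pancreas, leukocytes and muscle matched 0 named probes, so these lists could not check the labelled tissue. The one named haemoglobin probe, subunit beta-1 (5630406), read 2.85, 2.95 and 2.88 on the control arrays, 1.78, 1.54 and 1.48 with low U, 1.23, 1.21 and 1.28 with medium U and 2.11, 1.99 and 1.96 with high U. This red cell transcript was lower in all exposed groups and turned back at high U, and its part in the declines was not tested.

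Within single slides the order of the doses was kept less often than in the group means, where the rule fixed it for all 100. Of the 100 probes, 7 fell at every step on all 3 slides (0.044% of always-detected probes), 18 on 2 slides, 47 on 1 slide and 28 on none. The 9 steps within slides went down a median of 7 times per probe and at least 4 times. The median fall from control to high U was 0.94 on slide 1, 0.92 on slide 2 and 0.65 on slide 3. These slides are the ones that chose the probes. The counts of 18, 47 and 28 have no share over all always-detected probes beside them.

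The 7 probes that fell on all slides were 5461234, OM_UG27_56241420, 5642210, 5667161, 5651072, 5636466 and 5668232, and they are given after their values were seen. OM_UG27_56241420, ranked 14, read -1.50, -1.02 and -1.37 on the control arrays, -1.46, -1.57 and -1.54 with low U, -1.91, -1.75 and -1.84 with medium U and -2.02, -2.17 and -2.37 with high U. It alone of the 7 had no overlap both between low and medium U and between medium and high U. Probe 5636466 had the narrowest controls of the 7, at 3.21, 3.12 and 3.16, followed by 2.73, 3.09 and 2.80 with low U, 2.74, 2.79 and 2.54 with medium U and 2.70, 2.50 and 2.41 with high U. Its fall was 0.62, and all exposed arrays lay below the controls. The other 5 fell by 0.78 to 1.10.

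For some members the first step made up most of the decline. The first step was more than 0.8 in 9 probes and outweighed the other 2 together in 22, counts given without a share over all always-detected probes. The 9 differed in shape. Probe 5662026 fell by a further 0.48 in its last step, and in 5415859 (controls -1.88, 1.70 and -1.01) control and low U arrays overlapped. The steepest, 5659362 (ranked 49 and picked out after its values were seen), read 4.79, 3.59 and 2.29 on the control arrays, 1.28, 0.92 and 1.27 with low U, 1.60, 0.44 and 0.71 with medium U and 1.43, -0.09 and 0.89 with high U. Its drops were 2.40, 0.24 and 0.18. SS_UG_35590608, ranked 61, had the same course: 3.74, 2.31 and 1.18 on the control arrays, 0.70, 0.59 and 1.04 with low U, 0.95, 0.51 and 0.24 with medium U and 0.74, 0.22 and 0.24 with high U. In both the controls differed widely, in the same order of replicates, and lay above all exposed arrays.

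To read the steps on arrays that had not ranked the probes, 100 always-detected probes were rechosen by their smallest drop on the 8 arrays of 2 slides. Their steps were then taken on the 4 arrays of the slide left out. The always-detected filter was not redone and used all 12 arrays, so the slide left out took part in that filter. Of the rechosen 100, 10, 6 and 17 fell at every step on slides 1, 2 and 3 when that slide was left out, 33 of 300 in all. Over all always-detected probes the shares were 6.03%, 3.74% and 5.37%. The rechosen sets shared 24, 18 and 36 probes with the 100. At most 17 of each 100 thus kept the order of the doses on arrays that had not ranked them.

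The fall from control to high U was also read on the slide left out. A probe that keeps the order of the doses must also fall over this range, so this count cannot be the smaller one. From control to high U, 76, 85 and 77 of the rechosen 100 were lower on the slide left out, against 47.6%, 50.1% and 49.4% of all always-detected probes, with median falls of 0.49, 0.47 and 0.39. The first step was downward in 72, 65 and 70 (46.0%, 40.5% and 52.4% of all). The second step was downward in 65, 43 and 58 (52.4%, 64.9% and 44.5% of all), and so lay below the share of all probes on slide 2. The last step was downward in 38, 57 and 53 (48.2%, 46.2% and 50.7% of all), below that share on slide 1. Each slide gives 1 array per group, and probes on an array are not independent, so no p-value is given.

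**Figure D4:**
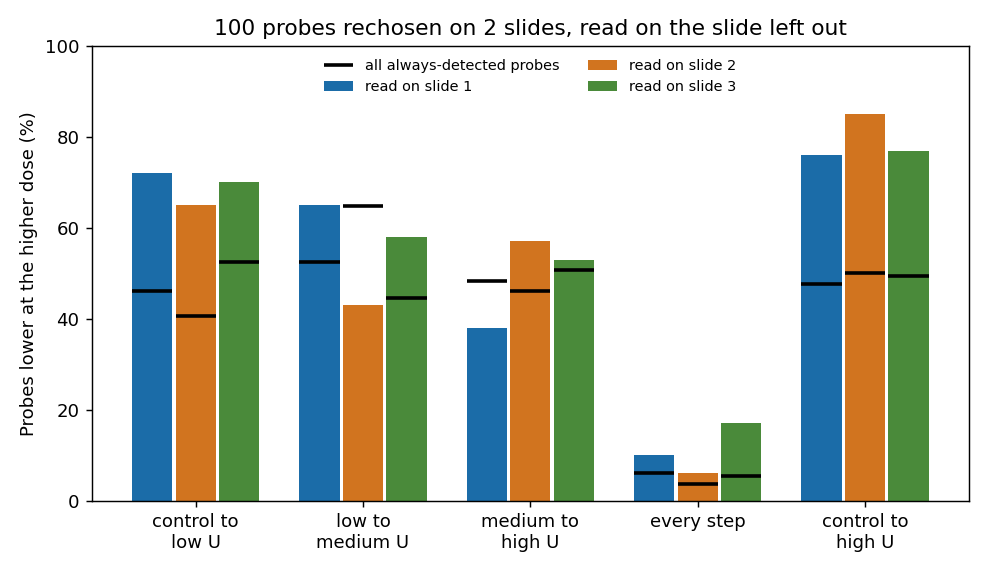
Percent of 100 probes, rechosen on the other slides, that were lower at the higher dose on the slide left out (bars, coloured by that slide), for each step, for all 3 steps together and for control to high U; black lines give the same percent over all 20456 always-detected probes on that slide. The first step and the whole range stood above the lines on the 3 slides, whereas the second step on slide 2 and the last on slide 1 stood below them.

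In the limma fit over the 4 groups, few of the 100 passed the tests. The F-test over the groups (adjusted p below 0.05 by Benjamini-Hochberg, with a change of at least 1.5-fold at some dose) called 3 of the 100, beside 4.82% of the 29456 probes tested. Against the control, low U called 1 lower (2.21% of probes tested), medium U 5 (4.9%) and high U 10 (1.13%), and 88 were called lower at no dose. None was called higher (0). The probe called at all 3 doses was 5659362. Calls at high U moved with single arrays, among the 100 as over all probes tested. The 10 became 0 without high U replicate 2 (0.108% of probes tested) or 3 (0.212%), 1 without control replicate 2 (0.267%) and 19 without control replicate 3 (1.78%). With the slide as a block, high U called 29 of the 100 (2.59% of probes tested) and the F-test 10 (10%). The share of all probes tested that was called lower at no dose was not taken, so the 88 has no background. The rule used these same contrasts, so the counts are a description.

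No single probe of the 100 passed the adjusted test between neighbouring doses. Between low and medium U, limma with Benjamini-Hochberg adjustment called 0 of the 100 lower (0% of probes tested), and at an unadjusted p below 0.05 with the same fold it called 0 (0.581%). Between medium and high U it called 0 of the 100 (0%), and 1 at an unadjusted p below 0.05 (2.74%). A call needed a drop of at least 1.5-fold within that 1 step. The median drops of the 100 at these steps, 0.22 and 0.22 on the log2 scale, lay below this limit. Most of the 100 could thus not be called whatever their p-value, and the counts say little about such small drops. The lowest adjusted p over the 100 was 1.00 for the former step and 0.737 for the latter. With the slide as a block, a fit added after the data were seen, limma again called 0 of the 100 at either step (0% of probes tested), with 0 and 1 at an unadjusted p below 0.05 (0.815% and 3.26%) and lowest adjusted p-values of 0.997 and 0.401. That these steps missed the threshold does not show that the doses had equal levels.

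The 100 probes shared few features beyond the rule. All carried different source identifiers, 91 were printed in 1 spot and 9 in 2 spots, and none of their 1200 values came from a spot marked as an outlier (0). Plain contig numbers made up 72 of the 100 (71.7% of always-detected probes), identifiers starting with OM_UG27 made up 14 (20.1%) and those starting with SS_UG 13 (7.55%). The array was designed on sequences of both Atlantic salmon and rainbow trout. One identifier ended in _AS (0.626% of always-detected probes): 5634602_AS, ranked 58, whose values were scattered most at medium U (-0.91, 3.05 and -2.28) and overlapped at each step. The probe with the same number and no ending was above background on 3 arrays only.

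The 100 lay towards the dim end of the always-detected probes. Their median log2 intensity was 6.54 against 7.36 for all always-detected probes, at the percentile 33.6. With those probes divided into 4 equal bins by intensity, the dimmest bin held 37 of the 100, the following bins 30 and 23, and the brightest 10. Deviations from the group means, which the rule did not use, were barely shared: the median correlation over the 4950 pairs of members was 0.07, and over pairs of a member and another always-detected probe it was 0.02. Correlations above 0.5 made up 13.2% of the former and 12.3% of the latter. These points share 12 arrays and 3 slides, and are given without a test.

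The decline was relative to the rest of each array, and its shape depended on how the arrays were put on one scale. With quantile normalisation, with the array median and with the authors' value table, all 100 probes still fell at each step. The median drops of the 100 were 0.30, 0.22 and 0.22 with quantile normalisation and 0.22, 0.25 and 0.17 with the array median. With the 75th percentile taken over always-detected probes only, they were 0.34, 0.18 and 0.26.

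Scaled to the 7 spike-in probes, which follow added RNA and not the bulk of the array, most of the 100 rose from control to low U. Their median drops were -0.50, 0.02 and 0.97, beside -0.87, -0.16 and 0.75 over all always-detected probes. On that scale 9 of the 100 fell in the first step, 62 in the second, 100 in the last and 5 in all of them. At each step all 100 still fell more, or rose less, than the median probe, as they must, since scaling shifts all probes of an array alike. With normexp background correction the median fall of the 100 shrank from 0.81 to 0.42, and 58 still fell at each step. These 58 had a median log2 intensity of 6.87, and the 42 that did not had 5.81.

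**Figure D5:**
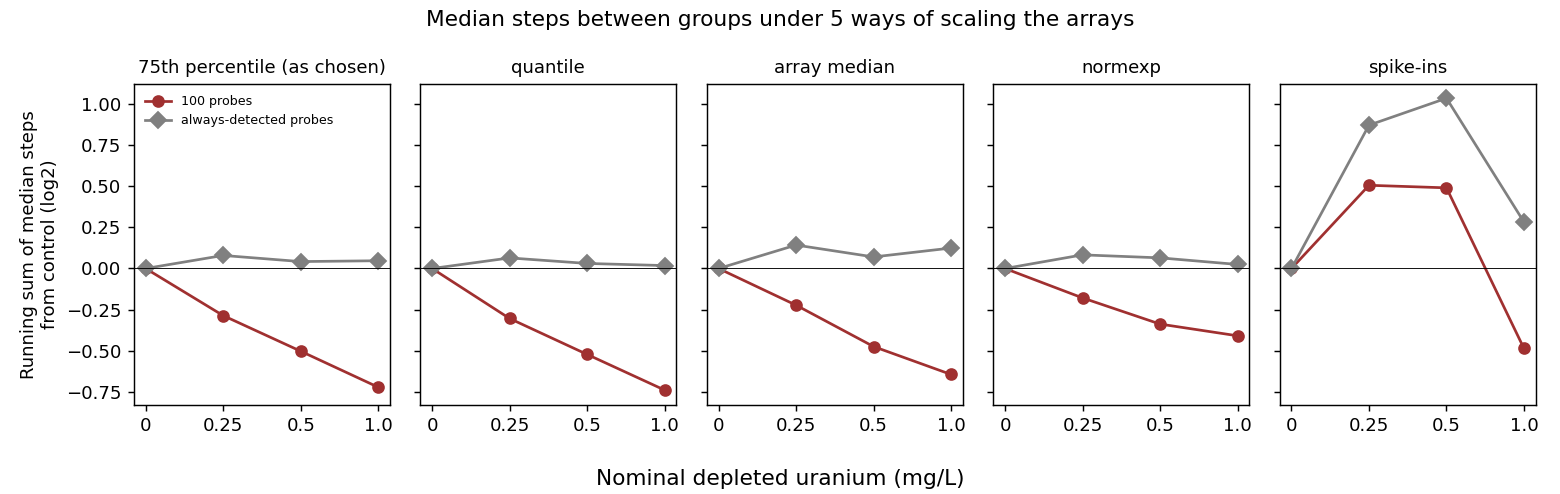
Running sum of the median steps from the control (vertical axis, log2) by nominal dose (horizontal axis, mg/L) for the 100 probes (red circles) and all always-detected probes (grey diamonds), under 5 ways of scaling or correcting the arrays. The median steps of the 100 were downward in the first 4 panels, although with normexp only 58 of the 100 probes fell at every step. With spike-in scaling the medians of both sets rose at low U and dropped by 0.97 and 0.75 in the last step.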

How the data were processed

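Scanner output of 12 one-colour arrays was used. Per the labels, the authors extracted spot intensities with Agilent Feature Extraction (version 10.7, from the submitters' processing notes); the deposited processed intensity is corrected for background by that software and not scaled between arrays. The authors also deposited a log2 value table for 40267 probes, whose scaling method is not given in the sources used here.

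Control spots were left out, and the log2 of the processed intensity minus the array's 75th percentile over 61657 probe spots was averaged per probe. The members and gene lists were chosen with earlier results of these data known. Named are the 10 members with the highest score, every member with a gene name, and the probes beside the limit of 100. Gene names came from 1995 rows of the study's tables of responding probes. They were tied to 886 probes by matching the fold changes of these rows to the value table, within a relative tolerance of 3e-06. A unique match at a single dose was enough. The authors' fold changes served for this matching alone and are not given as results. The array files used here hold no probe sequence.

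limma (3.58.1, R 4.3.3) fitted the 4 groups in 1 model after spots marked as outliers were set to missing, on the 29456 probes detected above background throughout 1 group or more and with 2 or more values in each group, with two-sided p-values. The fit was also run on simulated data, in which 200 of 29456 probes fell by a log2 of 0.67 per step. The F-test recovered 51.0% of these and the test of high U 63.5%. The median drops of the members were smaller, at 0.29, 0.22 and 0.22. Recovery of drops of that size was not simulated, so these percentages do not apply to the members. Tables were made with pandas 2.3.3 and numpy 2.4.6 in Python 3.11.15, and figures with matplotlib 3.10.9. For arrays, the number per group limits the precision. Alternatives were other scalings, background correction, filters, outlier flags, blocks, the one-way test of the methods and leaving out each array. Slides, not replicate numbers, held arrays that deviated together: deviations from group means correlated above 0.1 in 16 of 18 pairs on a slide (median 0.30) and in 7 of 18 pairs with a replicate number (median -0.02).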

Additional observations from a re-analysis of the deposited data

How the results depend on the processing

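Of the settings below, normexp (run on the median spot signal with an offset of 50, as the planned mean signal was not used here) and spike-in scaling were chosen after seeing the data. Quantile normalisation, the 75th percentile over always-detected probes, median scaling, the value table, missing outlier spots and a wider filter kept the number of probes falling at every step within 871 to 1702 (1164 as reported), and all but the filter, which leaves the 100 as they are, kept all 100 falling. Normexp gave 749 such probes, a median fall of 0.42, 58 of the 100 falling at every step, 8 calls by the F-test (11.1% of all probes tested, against 3 and 4.82% as reported) and 4 lower at high U (0.445%, against 10 and 1.13%). Spike-in scaling gave 483 probes (43 rising), a median fall of 0.58, 5 of the 100 falling at every step and 95 of 300 rechosen probes falling at every step on the slide left out (33 as reported). On the spike-in scale the median drops of all always-detected probes were -0.87, -0.16 and 0.75. Their share falling at every step on the slide left out is not given there, so 95 and 33 cannot be compared. Leaving out the replicate number in place of the slide gave 27 of 300, beside 3.48%, 4.25% and 4.02% of all always-detected probes.

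The same replicate numbers do not pair the samples; the fit with them as a replicate block called 1 probe by the F-test (2.66% of all probes) and 4 lower at high U (0.631%). The slide as a block called 10 (10%) and 29 (2.59%), and testing only always-detected probes called 5 (7.35%) and 25 (1.85%). Without a filter on dim probes 0 were lower at high U (0.151%), and the methods' one-way test, followed by Tukey's comparison, called 2 (0.805%). Leaving out each array in turn gave 959 to 1399 probes falling at every step and a median fall of 0.80 to 0.91. Of the 100, 79 to 96 still fell at every step. The F-test called 0 to 3 of them (1.17% to 4.88% of all probes), with 3 only without control replicate 3 (4.88%). At high U 0 to 19 were called (0.108% to 1.78% of all probes). These were 9 and 11 without low U replicates 1 and 2, and at most 6 without any other array but control replicate 3. Rechosen on 11 arrays, 45 (without medium U replicate 3) to 77 (without control replicate 1) of the 100 were shared; rechosen under normexp 21 were, and under spike-in scaling 0. For the 11 probes named by rule, 132 alternatives could change the fall from control to high U. Each shift was set against the SD of that probe's falls on the 3 slides, and not against the SD within groups. In 121 the fall moved by less than 1 such SD and in 11 by more, 8 of them the LBR probe, and 0 reversed. The SD was each probe's own, so a small shift exceeds it in a steady probe. With each array left out, the LBR fall stayed within 0.79 to 0.93, the narrowest range of the 11. That of 5631868 ranged from 0.57 to 2.00, which counted as less than 1 SD. The cause of these changes was not tested. The 100 lay towards the dim end of the always-detected probes (median log2 intensity 6.54 against 7.36).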
